A study of Rattus norvegicus with 24 samples.

Results

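The circadian clock genes described here were the transcription factor gene Arntl (Bmal1), the period genes Per1, Per2 and Per3, the cryptochrome genes Cry1 and Cry2, the REV-ERB genes Nr1d1 and Nr1d2, and the D-box regulator genes Dbp and Nfil3. They were 10 of the 13458 gene symbols in the table, and each was read from the row of its symbol with the highest mean over all limbs. All 10 were detected in every library, and the largest mean belonged to Nr1d2 and the smallest to Per3. The comparison asked whether a difference in a clock gene lay between the limbs of 1 animal or between animals.

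RNA-seq was carried out on the tibialis anterior muscle of both limbs of 12 male Fischer 344 rats aged 23 months, which gave 24 libraries. In 9 animals tetrodotoxin (TTX), a blocker of nerve conduction, was delivered by an osmotic pump to the left common peroneal nerve, in 3 groups of 3. The atrophy animals were killed after 6 to 7 days of TTX, the recovery animals once 9 TTX-free days had followed, and the repeated atrophy animals at the end of a new TTX period of 5 to 6 days. The other 3 animals were sham operated without TTX, 1 for each of the atrophy, recovery and repeated atrophy times, and are called sham animals 1, 2 and 3 in that order. The right limb was untreated in every animal, and the right limbs of the 9 TTX animals formed the study's control group (n = 9). All animals lived with light and dark periods of 12 h each. Tissue was taken between 8 and 13 h, early in the rats' inactive phase, and both limbs of an animal were frozen together. The hour of each animal was not given in the sources used here, so that collection hour, days since surgery and treatment cannot be told apart between animals, whereas the 2 limbs of 1 animal shared all but the limb's own treatment. The repeated atrophy animals also lost body weight, and only males were studied.

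In the molecular clock, ARNTL pairs with CLOCK or NPAS2 and binds E-box sequences to switch on the period and cryptochrome genes, whose proteins return to the nucleus and repress that pair. A second loop runs through the REV-ERB proteins NR1D1 and NR1D2, which repress Arntl through a RORE element, and another through the activator DBP and the repressor NFIL3, which compete for D-box sequences. Skeletal muscle keeps such a clock of its own, with Arntl and the REV-ERB and Dbp transcripts peaking at opposite times of day.

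The promoters of 5 members are printed because they carry these elements or belong to the genes on which the comparisons turn. They are the 250 bases before and 50 bases after a RefSeq transcription start of the rat genome build GRCr8, 5′ to 3′ on the gene's strand, and capitals mark a match to one of 5 motifs searched on both strands. RefSeq lists Arntl as Bmal1.
Arntl, chr1:176766078-176766377 (plus strand): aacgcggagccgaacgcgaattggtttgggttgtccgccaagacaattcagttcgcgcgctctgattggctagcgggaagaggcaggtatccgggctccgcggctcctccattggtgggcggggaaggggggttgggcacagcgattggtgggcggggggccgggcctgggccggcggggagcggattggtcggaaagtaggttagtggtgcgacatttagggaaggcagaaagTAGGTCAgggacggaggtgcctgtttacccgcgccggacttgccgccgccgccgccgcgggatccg
Per2, chr9:99496944-99497243 (minus strand): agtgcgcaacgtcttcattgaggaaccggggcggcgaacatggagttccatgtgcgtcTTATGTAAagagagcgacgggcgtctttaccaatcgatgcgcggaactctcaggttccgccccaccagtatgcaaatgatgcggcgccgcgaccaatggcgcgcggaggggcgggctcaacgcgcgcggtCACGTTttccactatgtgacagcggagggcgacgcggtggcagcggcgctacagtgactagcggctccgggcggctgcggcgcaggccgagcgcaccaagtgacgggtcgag
Nr1d1, chr10:84229405-84229704 (minus strand): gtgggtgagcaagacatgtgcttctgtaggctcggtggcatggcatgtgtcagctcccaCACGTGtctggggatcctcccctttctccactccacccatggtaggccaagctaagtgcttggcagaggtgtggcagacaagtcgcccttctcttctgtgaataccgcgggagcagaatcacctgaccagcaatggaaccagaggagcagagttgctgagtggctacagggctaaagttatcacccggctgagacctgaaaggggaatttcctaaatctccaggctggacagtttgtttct
Dbp, chr1:105312006-105312305 (plus strand): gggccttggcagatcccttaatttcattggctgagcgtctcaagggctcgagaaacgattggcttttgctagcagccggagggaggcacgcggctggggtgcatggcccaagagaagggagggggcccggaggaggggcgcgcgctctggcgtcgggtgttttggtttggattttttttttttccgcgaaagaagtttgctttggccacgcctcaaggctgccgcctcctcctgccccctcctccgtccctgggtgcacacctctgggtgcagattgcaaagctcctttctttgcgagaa
Nfil3, chr17:12432126-12432425 (plus strand): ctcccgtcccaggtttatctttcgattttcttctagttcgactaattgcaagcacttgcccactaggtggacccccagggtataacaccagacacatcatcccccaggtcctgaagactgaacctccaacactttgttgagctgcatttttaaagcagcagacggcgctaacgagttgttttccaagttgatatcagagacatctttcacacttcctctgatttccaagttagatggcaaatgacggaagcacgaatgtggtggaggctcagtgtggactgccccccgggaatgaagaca

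The motifs were the E-box CACGTG, held by 6.65% of the 27457 rat promoters of this length, the variant E′-box CACGTT (4.93%), the D-box TTATGTAA or TTACGTAA (1.01%), the core of the RORE element TAGGTCA or TGGGTCA (6.51%) and the cyclic AMP response element TGACGTCA (1.91%). In the Arntl promoter a RORE core lay 16 bases before the start. The Per2 promoter held an E′-box 62 bases and a D-box 192 bases before the start, and the printed Nr1d1 promoter an E-box 191 bases before it. Another listed Nr1d1 start, upstream of the printed one, had an E′-box 174 bases before it, and the Cry2 promoter an E′-box 212 bases before it. The Nr1d1 row used here began upstream of the other Nr1d1 row, so the printed promoter may not be its own. Rows and starts were not matched between the genome builds. No match was found in these windows for Per1, Per3, Nr1d2, Dbp or Nfil3. A promoter was matched for 9 of the 10 members, all but Cry1.

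Values are read counts scaled to the same total in each library (CPM). Depth, read from the smallest step between values, was such that 1 CPM stood for 18.9 to 30.9 reads (median 26.1), and the lowest value of any member was 2.14 CPM. Muscle fibre markers took 80428 to 219807 CPM of each TTX-animal library, with 159357 to 219807 in control limbs. Atrophy limbs, at 80428 to 169901 CPM, overlapped these, and repeated atrophy limbs, at 102557 to 138269 CPM, all lay below them. Sham left limbs, at 128768 to 185592 CPM, overlapped both control and repeated atrophy limbs. In atrophy and repeated atrophy animals together the markers moved both ways between limbs. Mean log2 differences were -0.61 for Acta1, -0.91 for Ckm, -1.09 for Myh1, -0.95 for Myh4 and -0.22 for Mylpf. They were 0.33 for Tnnt3, 0.18 for Des and 0.72 for Myh2. Their part in the members' differences was not tested. Fibroblast markers summed to 1022 to 1918 CPM in recovery limbs and 194 to 528 in control limbs, which did not overlap. Macrophage markers summed to 78.6 to 161.1 CPM in recovery limbs. This range lay above the right limbs of the same animals (46.0 to 63.4) but overlapped the 9 control limbs (28.8 to 97.6). The part of both marker sets in the recovery values was not tested. Markers of endothelium, Schwann cells and adipocytes were also present. In whole muscle, fewer cells of a type and less RNA per cell cannot be told apart. In the limma fits on log2(CPM + 1) a row was called where its fold was at least 1.2 and its p, adjusted over all rows by Benjamini-Hochberg, did not exceed 0.05.

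In control limbs, the level per length was highest for Nr1d1, at 36.9 ± 11.8 CPM per kb (SD, n = 9). Dbp stood at 33.9 ± 16.2, Nr1d2 at 24.6 ± 5.13 and Nfil3 at 23.7 ± 10.5 CPM per kb. Among these 4, Nr1d1 lay within the SD of Dbp, and Nr1d2 within that of Nfil3. Dbp stood above Nr1d2 by more than the SD of Nr1d2 but less than its own. Nr1d1 stood above Nr1d2 and Nfil3 by more than the SD of any of the 3. Dbp is given there from 1 of its 3 rows, and with its rows summed and divided by the length of the longest it stood at 65.9 ± 33.2 CPM per kb, above Nr1d1 at 39.2 ± 12.7, so that the first place turned on the rows chosen. Cry2 followed at 14.7 ± 2.45, Per1 at 11.02 ± 5.07, Per2 at 7.36 ± 1.27 and Cry1 at 5.59 ± 1.10 CPM per kb. The lowest were Arntl at 3.37 ± 2.42 and Per3 at 2.73 ± 0.701 CPM per kb, which overlapped.

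Within animals, limbs silenced by TTX at collection (the 6 atrophy and repeated atrophy animals together) differed from the right limb of the same animal in 5 of the 10 members. Nfil3, Nr1d1 and Cry1 fell, and Dbp and Cry2 rose. In this comparison 37.2% of all rows were called, 30.5% higher and 6.76% lower, beside which stand the 2 members called higher and the 3 called lower. The median member differed by 0.07 on the log2 scale, against 0.18 over all rows. When libraries were rescaled so that a trimmed mean of their log ratios was equal, which moved the median row from 0.18 to 0.01, the share of higher rows among those called went from 81.9% to 50.7%, and the members called were Dbp, higher, and Per2, Cry1, Nr1d1 and Nfil3, lower.

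**Figure D1:**
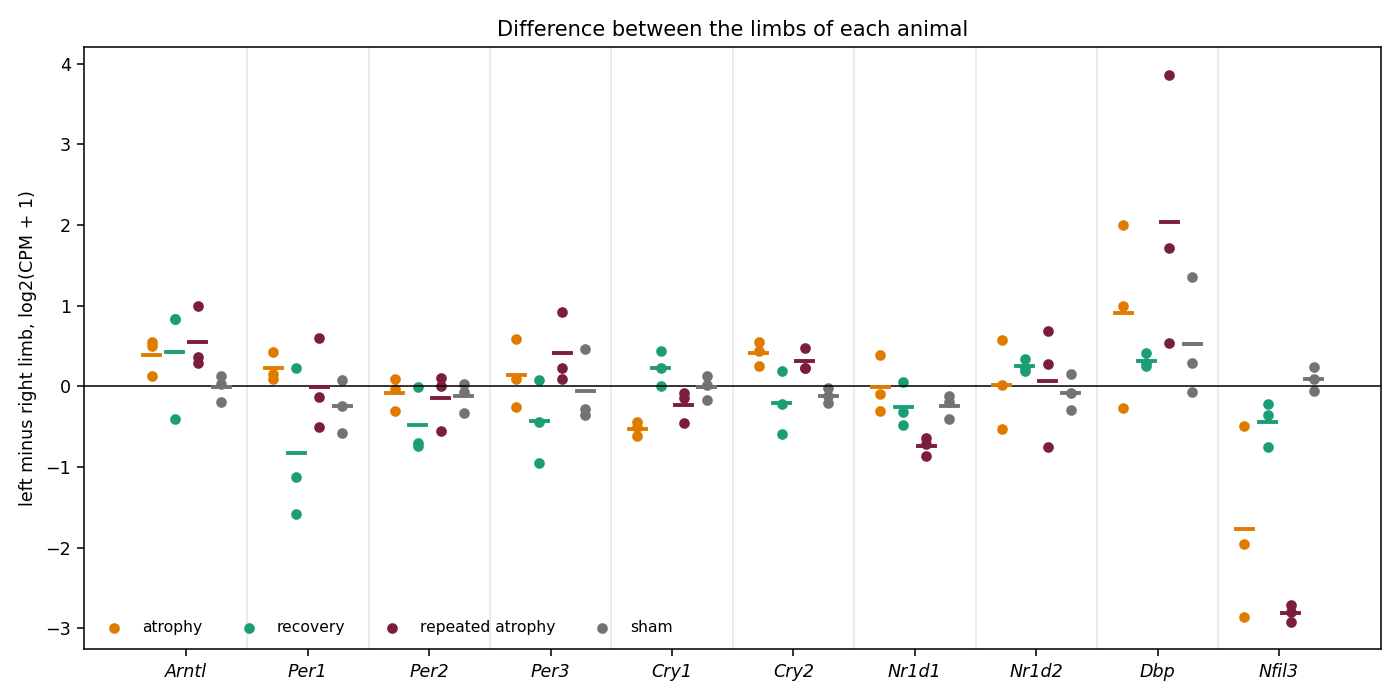
Left minus right difference in log2(CPM + 1) for each of the 10 clock genes in each of the 12 animals, by treatment group, with points for animals and bars for group means (n = 3). Nfil3 lies between -2.92 and -2.72 in the repeated atrophy animals, where the other genes stay closer to 0 except Dbp. In the sham animals it lies between -0.06 and 0.24, where Per1 reaches -0.57 and Per3 0.46. Per1 reaches -1.58 in the recovery animals.

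Nfil3 (chr17:12280499-12295729 in rn7, plus strand) encodes the basic leucine zipper repressor that opposes DBP at D-boxes, and its mean difference in silenced limbs was the widest of the 10 members. In atrophy animals 1, 2 and 3 it had 43.4, 63.1 and 95.0 CPM in the right limb and 5.10, 44.6 and 23.8 CPM in the left. In repeated atrophy animals 1, 2 and 3 it had 39.7, 45.0 and 35.1 CPM in the right limb and 4.86, 5.07 and 4.50 CPM in the left. The left limb was lower in 6 of 6 silenced animals, with no overlap between the limbs after repeated atrophy and an overlap after atrophy through animal 2. In recovery animals 1, 2 and 3 it had 31.2, 32.7 and 33.9 CPM in the right limb and 26.8, 25.3 and 19.7 CPM in the left. In sham animals 1, 2 and 3 it had 89.0, 31.9 and 178.9 CPM in the right limb and 95.2, 30.7 and 212.0 CPM in the left. The recovery limbs were again all lower than their right limbs, by less on average although animal 3 differed by -0.76 and atrophy animal 2 by -0.49, and the 2 limbs of each sham animal were close although sham animals differed widely.

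In silenced limbs Nfil3 fell by 2.29 on the log2 scale (SE 0.22, adjusted p = 0.00016), to 0.204 of the right limb. After repeated atrophy it fell by 2.81 (SE 0.31, adjusted p = 0.00041), where 32.6% of all rows were called, 26.1% higher and 6.51% lower. Both calls held when any 1 animal was left out. After atrophy alone the difference was -1.77 (SE 0.31, adjusted p = 0.065), in a comparison where 0% of rows were called. Leaving out atrophy animal 2 gave -2.41 (adjusted p = 0.00014) and leaving out atrophy animal 1 gave -1.22, which was not called. The difference was -0.44 in recovery (SE 0.31, adjusted p = 0.42) and 0.09 in sham animals (95% interval -0.57 to 0.76). Rows called made up 0.891% in recovery and 0% in sham animals, and no member was called in either, with 2 and 0 members at an unadjusted p under 0.05.

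The limb difference of Nfil3 was itself compared between groups. The value in silenced animals minus that in sham animals was -2.38 (SE 0.38, adjusted p = 0.0486), in a comparison that called 0.0637% of rows and no other member. This call was lost without any 1 of 10 of the 12 animals, with values over all omissions from -2.70 to -2.11. The value in recovery animals was 1.85 above that in silenced animals (SE 0.38, adjusted p = 0.0499), where 0.757% of rows and again no other member were called. With its rows summed Dbp was called there too (-1.42, adjusted p = 0.035). The Nfil3 call stayed only when the animal left out was atrophy animal 1, atrophy animal 2 or recovery animal 3. Both Nfil3 calls were lost after rescaling (adjusted p = 0.073 and 0.065) and after quantile scaling (adjusted p = 0.092 and 0.082).

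Dbp (chr1:96175796-96180746, plus strand) encodes the D-box activator that is a direct output of the ARNTL and CLOCK pair. It had 3 rows at 1 locus, of 1249, 1360 and 1660 bases, between which reads may have been split, and the 1249-base row had the highest mean. In that row, repeated atrophy animals 1, 2 and 3 had 59.1, 43.7 and 7.23 CPM in the right limb and 86.5, 144.9 and 118.5 CPM in the left. Atrophy animals 1, 2 and 3 had 30.8, 33.6 and 24.2 CPM in the right limb and 125.5, 27.7 and 49.4 CPM in the left. The left limb was higher in 5 of the 6 silenced animals, and atrophy animal 2 went the other way. In recovery animals 1, 2 and 3 the row had 72.1, 54.3 and 56.2 CPM in the right limb and 88.2, 64.5 and 75.4 CPM in the left. In sham animals 1, 2 and 3 it had 14.6, 77.2 and 20.2 CPM in the right limb and 39.1, 73.6 and 24.9 CPM in the left. Sham animal 1 differed between its limbs by 1.36 on the log2 scale, as far as some silenced animals.

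In silenced limbs this Dbp row rose by 1.47 (SE 0.36, adjusted p = 0.0071), in every fit that left out 1 animal as well. After repeated atrophy it rose by 2.04 (SE 0.51, adjusted p = 0.0097). This second call rested on repeated atrophy animal 3, whose right limb held 7.23 CPM, and without it the value was 1.12 (adjusted p = 0.11). The difference from sham animals was 0.95 (95% interval -0.41 to 2.30, adjusted p = 0.40).

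The 3 Dbp rows did not move alike. In the right limb of repeated atrophy animal 3 the 1660-base row held 146.1 CPM, and in the recovery animals that row fell by 1.77 in the left limb (adjusted p = 0.028) while the 1249-base row differed by 0.32. Summed over the 3 rows, repeated atrophy animals 1, 2 and 3 had 82.7, 100.1 and 157.8 CPM in the right limb and 133.0, 208.3 and 283.5 CPM in the left. The summed level was higher in the left limb of all 6 silenced animals. In silenced limbs the sum rose by 0.88 (adjusted p = 0.00082), and in the repeated atrophy animals alone by 0.86 (adjusted p = 0.0083). In recovery limbs it was lower in 3 of 3, with a difference of -0.54 (adjusted p = 0.17), and the difference was 0.04 in sham animals. Compared directly, the summed limb difference in silenced minus sham animals was 0.84 (limma, adjusted p = 0.11), which was not called.

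**Figure D2:**
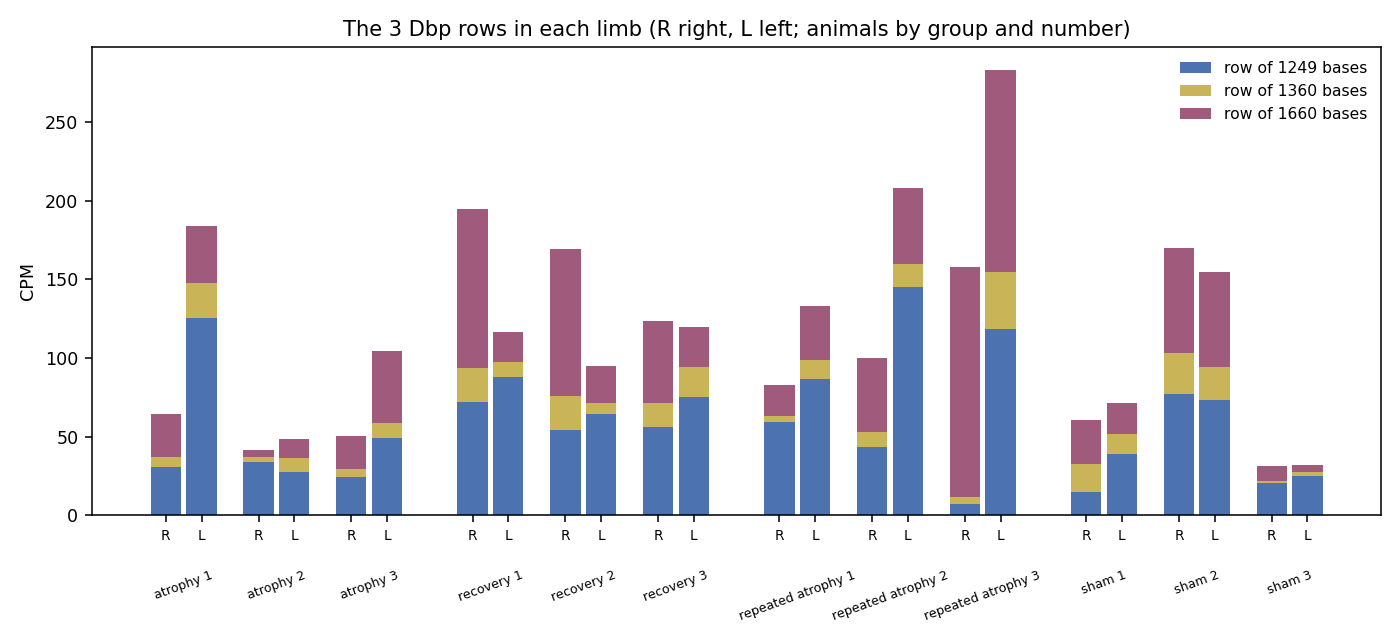
CPM of the 3 Dbp rows (1249, 1360 and 1660 bases) stacked for each of the 24 limbs, right limb beside left limb of each animal. The split between rows varies between limbs, and in the right limb of repeated atrophy animal 3 the 1660-base row holds 146.1 CPM and the 1249-base row 7.23 CPM.

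The cryptochromes, which form the repressing complex with the period proteins, differed between limbs in opposite directions. Cry1 (chr7:18529823-18594093, plus strand) had 17.3, 22.5 and 19.5 CPM in the right limb and 11.8, 14.3 and 14.1 CPM in the left limb of atrophy animals 1, 2 and 3. In repeated atrophy animals 1, 2 and 3 it had 16.1, 13.1 and 17.04 CPM in the right limb and 14.4, 12.3 and 12.2 CPM in the left. It was lower in 6 of 6 silenced limbs, with separate limb groups after atrophy and overlapping ones after repeated atrophy. Cry1 fell by 0.38 in silenced limbs (SE 0.11, adjusted p = 0.017), and leaving out repeated atrophy animal 3 gave -0.32 (adjusted p = 0.075). After rescaling the silenced value was -0.68 (adjusted p = 0.0015), and the value after repeated atrophy went from -0.23 to a call at -0.58 (adjusted p = 0.024). Its difference was 0.22 in recovery (adjusted p = 0.42) and -0.01 in sham animals (95% interval -0.35 to 0.33).

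Cry2 (chr3:78374996-78404954, minus strand) had 51.5, 41.3 and 71.1 CPM in the right limb and 76.1, 56.1 and 84.7 CPM in the left limb of atrophy animals 1, 2 and 3. In repeated atrophy animals 1, 2 and 3 it had 59.0, 55.4 and 72.5 CPM in the right limb and 69.3, 65.2 and 100.9 CPM in the left. It was higher in 6 of 6 silenced limbs, although the limb groups overlapped. Cry2 rose by 0.36 in silenced limbs (SE 0.10, adjusted p = 0.015), but by 0.04 (adjusted p = 0.79) after rescaling, which ended the call, and leaving out repeated atrophy animal 3 gave 0.32 (adjusted p = 0.062). In sham limbs its difference was -0.12 (95% interval -0.43 to 0.20).

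Nr1d1 (chr10:83728348-83735290, minus strand) encodes REV-ERB alpha, the nuclear receptor that represses Arntl. In repeated atrophy animals 1, 2 and 3 it had 76.8, 88.5 and 110.1 CPM in the right limb and 48.8, 53.5 and 59.8 CPM in the left. In atrophy animals 1, 2 and 3 it had 91.2, 53.3 and 74.9 CPM in the right limb and 85.4, 69.9 and 60.3 CPM in the left. The limbs were separate after repeated atrophy and overlapped after atrophy, where animal 2 was higher in the left limb. In recovery animals 1, 2 and 3 it had 144.1, 80.4 and 57.6 CPM in the right limb and 102.7, 64.2 and 59.6 CPM in the left. In sham animals 1, 2 and 3 it had 60.8, 147.0 and 100.5 CPM in the right limb and 55.7, 128.1 and 75.6 CPM in the left. The left limb was thus also lower in 3 of 3 sham animals.

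After repeated atrophy Nr1d1 fell by 0.74 (SE 0.15, adjusted p = 0.0033), a call that held when any 1 animal was left out, and after rescaling the value was -1.12 (adjusted p = 0.0013). In atrophy animals the difference was -0.0064 (adjusted p = 0.995). Over all silenced limbs Nr1d1 fell by 0.37 (SE 0.11, adjusted p = 0.015) and after rescaling by 0.69 (adjusted p = 0.0018), against -0.24 in sham animals (95% interval -0.57 to 0.08). The difference between silenced and sham animals was -0.13 (95% interval -0.53 to 0.26, adjusted p = 0.72). Without atrophy animal 3 the silenced value was -0.30 (adjusted p = 0.066) and without repeated atrophy animal 3 it was -0.34 (adjusted p = 0.056). Nr1d1 overlaps the 3′ end of Thra, the thyroid hormone receptor alpha gene on the other strand. The Thra row of 2253 bases reaches into Nr1d1, and that of 2240 bases ends before it. The Thra row with the highest mean, which may be either, had 2.52 to 11.4 CPM in repeated atrophy limbs against 24.9 to 56.2 in control limbs. The libraries were directional, the strand setting of the counting was not given in the sources used here, and the part of Thra in the Nr1d1 value was not tested.

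**Figure D3:**
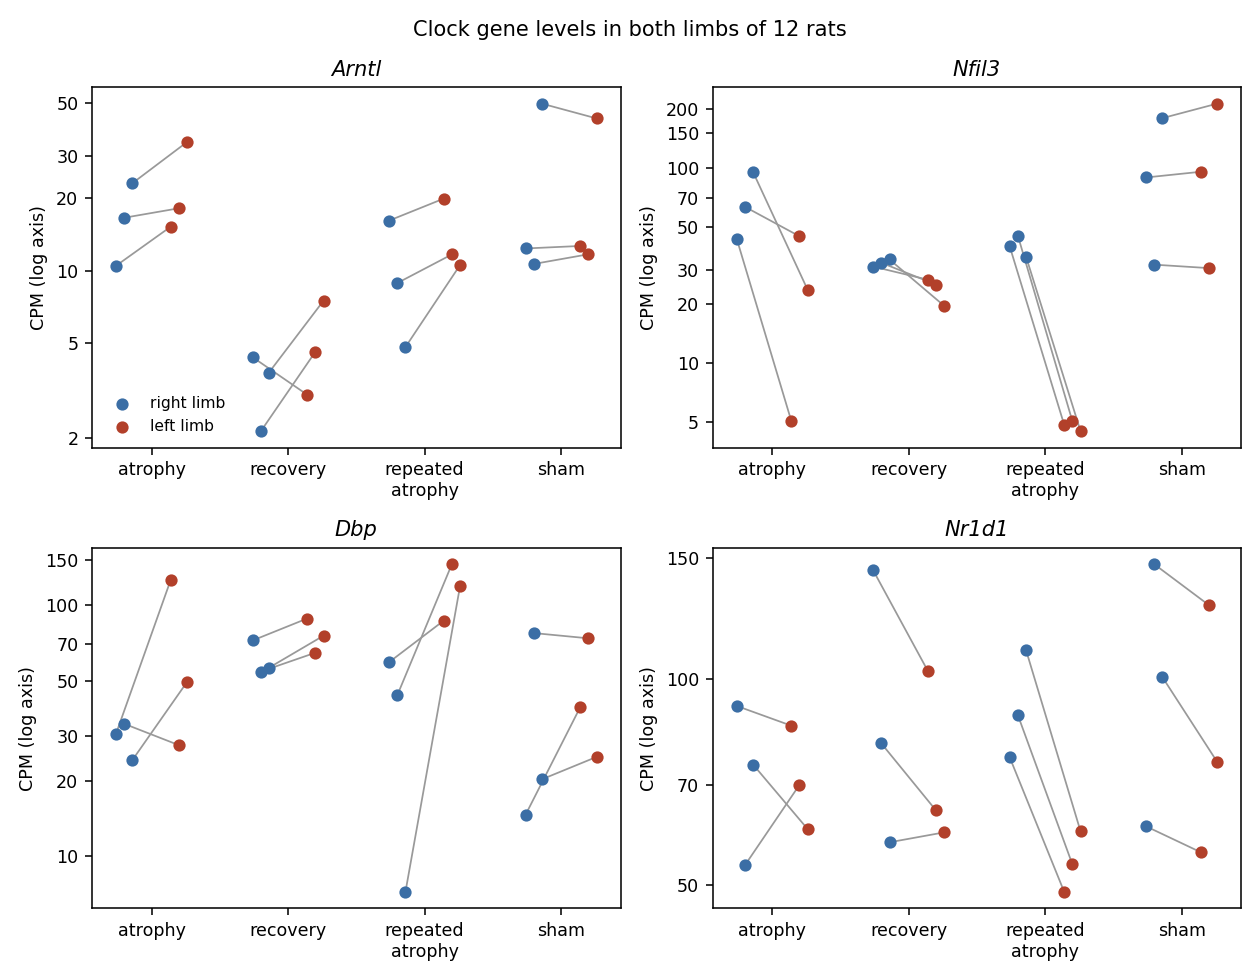
CPM on a log axis for Arntl, Nfil3, Dbp (1249-base row) and Nr1d1 in the 24 limbs by group, with the right limb in blue and the left limb in red and a line joining the limbs of each animal. Lines for Nfil3 fall steeply from right to left in the repeated atrophy animals, from 35.1 to 45.0 CPM to 4.50 to 5.07 CPM, while lines for Arntl are short beside the distance between animals.

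The other repressor genes gave no call between limbs. Per1, an early responder among the period genes, ranged over all limbs from 11.9 to 103.1 CPM, and Per2, which sets much of the clock's period, from 21.6 to 58.6 CPM. Silenced limbs differed from their right limbs by 0.10 for Per1 (95% interval -0.34 to 0.55) and by -0.12 for Per2 (-0.39 to 0.16), which became -0.43 (adjusted p = 0.0077) after rescaling. In recovery, Per1 had 37.6, 37.9 and 31.2 CPM in the right limb and 11.9, 16.9 and 36.6 CPM in the left limb of animals 1, 2 and 3. Its difference there was -0.83 (SE 0.29, adjusted p = 0.15) and that of Per2 was -0.49 (SE 0.18, adjusted p = 0.16), which became a call after rescaling (-0.61, adjusted p = 0.044) and after quantile scaling (-0.58, adjusted p = 0.048), with recovery animal 3 apart from the other animals in both. Per3, a period gene less needed for the rhythm, differed in silenced limbs by 0.28 (95% interval -0.13 to 0.68). Nr1d2, which encodes REV-ERB beta, differed by 0.05 (95% interval -0.33 to 0.42).

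Arntl (chr1:167331820-167430237, plus strand), the activator without which the loop does not run, differed more between animals than between limbs. In recovery animals 1, 2 and 3 it had 4.35, 2.14 and 3.76 CPM in the right limb and 3.04, 4.58 and 7.49 CPM in the left. In atrophy animals 1, 2 and 3 it had 10.5, 16.6 and 23.1 CPM in the right limb and 15.2, 18.2 and 34.3 CPM in the left. Every limb of the recovery animals lay below every limb of the atrophy animals, treated or not. In repeated atrophy animals 1, 2 and 3 it had 16.1, 8.87 and 4.80 CPM in the right limb and 19.9, 11.7 and 10.5 CPM in the left. In sham animals 1, 2 and 3 it had 12.4, 10.6 and 49.6 CPM in the right limb and 12.7, 11.7 and 43.0 CPM in the left. Sham animal 3 had the highest values of the series in both limbs.

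Between treated limbs, Arntl fell by 1.95 in recovery relative to atrophy (SE 0.62, adjusted p = 0.036), in a comparison that called 17.9% of rows and no other member. This call was lost after rescaling (-1.64, adjusted p = 0.079) and after quantile scaling (-1.69, adjusted p = 0.084), and the latter called Cry1 higher (0.62, adjusted p = 0.0495). Per1 was at -1.31 there (adjusted p = 0.056) and was called without atrophy animal 2 (-1.49, adjusted p = 0.0498), recovery animal 3 (-1.75, 0.024) or repeated atrophy animal 3 (-1.31, 0.039), and Cry2 without atrophy animal 2 (-0.67, adjusted p = 0.030). Between the untreated right limbs of the same animals the difference was nearly the same, -1.98 (SE 0.55, unadjusted p = 0.0039, adjusted p = 0.20). With the animal as a block the fit compares the difference between limbs in recovery animals with that in atrophy animals, a different question, and this value was 0.028 (adjusted p = 0.99). The call between treated limbs was lost without atrophy animal 1 (-2.18, adjusted p = 0.069), atrophy animal 3 (-1.61, 0.10), recovery animal 1 (-1.69, 0.14), recovery animal 2 (-1.93, 0.083) or repeated atrophy animal 2 (-1.95, 0.056). Within silenced animals Arntl was higher in the left limb in 6 of 6, by 0.47 (SE 0.18, adjusted p = 0.052), which became 0.17 (adjusted p = 0.48) after rescaling and was called without atrophy animal 2 (0.54, adjusted p = 0.043), recovery animal 1 (0.47, 0.020) or recovery animal 3 (0.47, 0.048). The difference of silenced from sham animals was 0.48 (95% interval -0.18 to 1.14).

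The study's own comparisons set each group of treated limbs against the pooled control limbs. Atrophy called 1 member, Nfil3, which fell by 1.23 (SE 0.41, adjusted p = 0.040) where 22.6% of rows were called. This call was lost without any 1 of 8 of the 9 animals, and without atrophy animal 1 the value was -0.41 (adjusted p = 0.52). With the animal as a block, which sets each limb against the other limb of its animal, it was -1.77 (adjusted p = 0.15). Per2 and Cry1 were at -0.24 and -0.25 there and were called lower after rescaling (-0.59, adjusted p = 0.040, and -0.59, adjusted p = 0.030) and after quantile scaling (adjusted p = 0.048 and 0.028). Recovery called none of the members and 7.73% of rows, with Per1 at -1.02 (adjusted p = 0.10) and Per2 at -0.53 (adjusted p = 0.10) both at an unadjusted p under 0.05. Per2 was called after rescaling (-0.56, adjusted p = 0.046). Repeated atrophy called 34.3% of rows, 28.1% higher and 6.24% lower, and of the members Nfil3 and Dbp.

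Nfil3 fell by 2.94 after repeated atrophy (SE 0.41, adjusted p = 0.00011), and Dbp rose by 1.62 (SE 0.50, adjusted p = 0.018). The Dbp value was 1.49 (adjusted p = 0.11) without repeated atrophy animal 2 and 1.03 (adjusted p = 0.067) with its rows summed. It also lost its call after rescaling (1.25, adjusted p = 0.084) and after quantile scaling (1.21, adjusted p = 0.11), under both of which the members called were Cry1, Nr1d1 and Nfil3, all lower. Nr1d1 was at -0.61 (adjusted p = 0.053), which the animal block turned to -0.74 (adjusted p = 0.011) and which was called without atrophy animal 2 (-0.69, adjusted p = 0.024), recovery animal 3 (-0.68, adjusted p = 0.035) or with its rows summed (-0.64, adjusted p = 0.039). Between treated groups, repeated atrophy and recovery called 27.2% of rows. Nfil3 fell by 2.09 (SE 0.51, adjusted p = 0.0068) and Cry2 rose by 0.61 (SE 0.22, adjusted p = 0.047), but with the animal as a block these were -2.37 (adjusted p = 0.087) and 0.52 (adjusted p = 0.25). Cry1 was at -0.31 there and was called lower after rescaling (-0.64, adjusted p = 0.028) and after quantile scaling (-0.67, adjusted p = 0.022). The Cry2 value was 0.26 (adjusted p = 0.39) after rescaling, and its call was lost without atrophy animal 1 (0.61, adjusted p = 0.060), recovery animal 1 (0.49, 0.20) or 2 (0.57, 0.15), or repeated atrophy animal 1 (0.69, 0.060), 2 (0.73, 0.059) or 3 (0.42, 0.20). Per1 and Per2 gained a call without recovery animal 3 (1.56, adjusted p = 0.027, and 0.83, adjusted p = 0.026), and Per2 without repeated atrophy animal 1 (0.84, adjusted p = 0.024). Repeated atrophy and atrophy differed in 0.0356% of rows and in no member, with 1 at an unadjusted p under 0.05, Nfil3, which was at -2.53 (adjusted p = 0.014) without atrophy animal 1. These group comparisons share the 9 control limbs.

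Right limbs were compared with each other, since their muscle was not treated. In the comparisons of recovery with atrophy animals, of repeated atrophy with each of these, and of sham with TTX animals, 0% of rows and no member were called in limma, with 1, 0, 1 and 2 members at an unadjusted p under 0.05 in recovery against atrophy, repeated atrophy against atrophy, repeated atrophy against recovery, and sham against TTX. Arntl in sham right limbs was 1.15 above that of TTX animals (95% interval 0.16 to 2.13, adjusted p = 0.56) and Nfil3 0.86 above (95% interval 0.02 to 1.71, adjusted p = 0.56). Without sham animal 3 these were 0.47 and 0.29, and without sham animal 2 they were 1.53 and 1.51. Sham left limbs against control limbs likewise called 0% of rows and no member, with 0 members at an unadjusted p under 0.05.

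The share of a gene's variation over the 24 limbs that lay between animals was 93.3% for Arntl, against a median of 58.7% over rows of at least 1 CPM. It was 80.2% for Cry1, 78.5% for Per1, 74.0% for Nr1d1, 73.4% for Per2 and 71.4% for Cry2. It was lower for Per3 (61.6%), Nfil3 (61.1%) and Nr1d2 (40.1%). For Dbp it was 45.4% in the 1249-base row and 80.1% with its rows summed. Over the 12 untreated right limbs, the SD of log2(CPM + 1) was 1.12 for Arntl, larger than in 99.2% of rows, and the limbs ran from 2.14 to 49.6 CPM. Dbp had an SD of 0.98, larger than in 98.6% of rows (0.87 with its rows summed), and Nfil3 of 0.79, larger than in 96.2%. Per2 varied little by this measure, with an SD of 0.28 that exceeded 27.3% of rows.

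Left and right limbs of an animal had like levels of Arntl. Over the 12 animals Pearson's r between limbs was 0.925 (permutation p = 2e-05, adjusted p = 0.0002 over 20 relations) and Spearman's rho 0.951 (permutation p = 2e-05, adjusted p = 0.0002). Without the 2 animals farthest from the median r was 0.875, and after rescaling 0.934. In no other member did the relation pass the adjustment, with adjusted p of at least 0.076. For Cry1 r was 0.658, which was -0.011 without the 2 farthest animals, and for Nr1d1 it was 0.692, which was 0.19 without them, so that both rested on those animals. Dbp gave 0.184 in the 1249-base row and 0.659 with its rows summed (permutation, adjusted p = 0.065), which was 0.252 without the 2 farthest animals and 0.818 after rescaling (permutation, adjusted p = 0.0049). After group means were taken away, r was 0.83 for Arntl and -0.22 for Nr1d2, against a median of 0.37 over rows. Each treatment group held 3 animals, too few for a value within a group.

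Across the same 12 right limbs, Arntl and Nfil3 were high in the same animals. Pearson's r was 0.839 (permutation p = 0.00037, adjusted p = 0.0067 over 18 relations) and Spearman's rho 0.783 (permutation p = 0.0033, adjusted p = 0.030). Without the 2 farthest animals r was 0.721. After rescaling r was 0.795 (permutation, adjusted p = 0.026) and rho 0.678 (permutation, adjusted p = 0.083), so that the rank relation no longer passed. Arntl with Cry1 gave r = 0.70 (permutation, adjusted p = 0.066), which was 0.47 without the 2 farthest animals. Arntl with Nr1d1 gave r = -0.10. Arntl with Dbp gave r = -0.26 (permutation, adjusted p = 0.67) in the 1249-base row, but with the 3 Dbp rows summed r was -0.860 (permutation, adjusted p = 0.0033 over 18 relations) and rho -0.811 (permutation, adjusted p = 0.013). The summed relation was -0.785 without the 2 farthest animals and -0.833 after rescaling, so that the value for Dbp turned on the rows chosen. Summed Dbp was lowest in sham animal 3, at 31.2 CPM, where Arntl was highest, and stood at 195.1, 169.1 and 123.3 CPM in the right limbs of recovery animals 1, 2 and 3. With the rows summed the adjusted p of Arntl with Cry1 was 0.039 at the same r. All these relations pooled the treatment groups, whose means were not taken off. Genes outside the members reached r of 0.980 (Usp8) and -0.946 (Ndufa13) with Arntl over the same limbs.

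**Figure D4:**
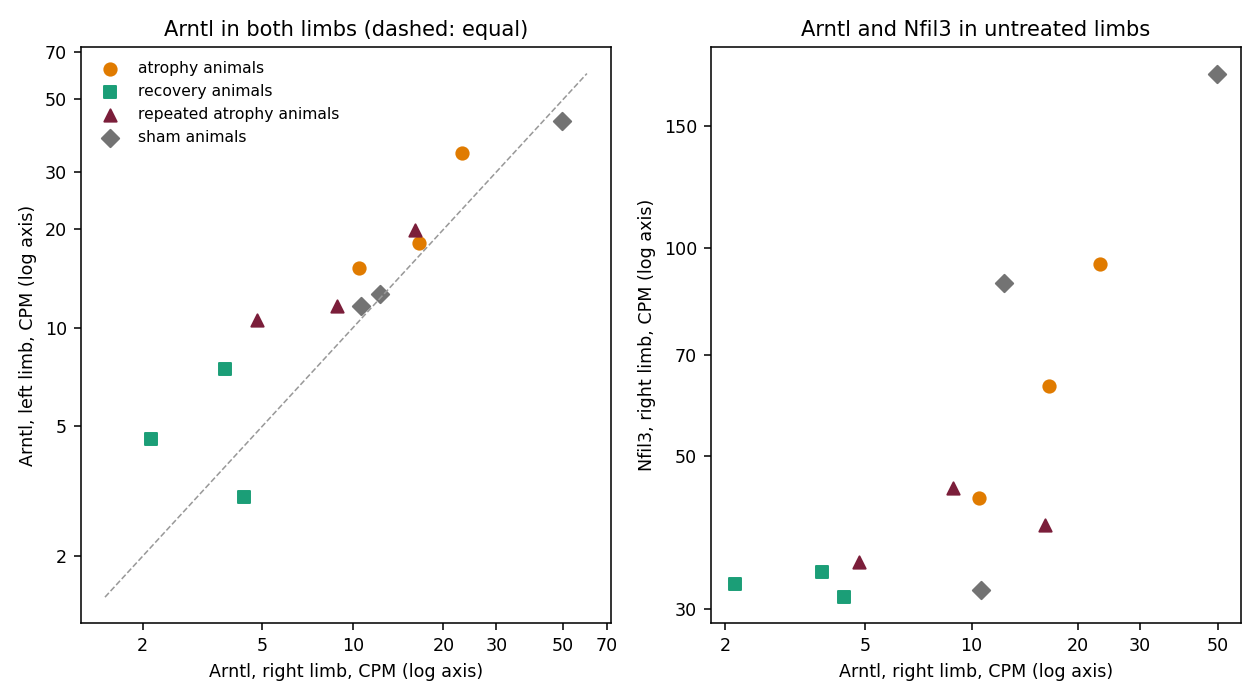
Left panel, Arntl CPM in the right limb against the left limb of the 12 animals on log axes, with a dashed line of equality. Right panel, Arntl against Nfil3 CPM in the 12 right limbs on log axes, with r = 0.839 on log2(CPM + 1), where the recovery animals hold the lowest Arntl (2.14 to 4.35 CPM) and sham animal 3 the highest of both genes.

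The genes outside the members whose levels were most like those of Arntl over the 12 right limbs, of 6755 rows with a mean of at least 10 CPM, were Usp8 (r = 0.980), Aff4 (0.975), Slc7a6 (0.968), Slc30a4 (0.967) and Txnrd1 (0.964). Those most opposed were Ndufa13 (-0.946), Gatd3a (-0.933), Col1a1 (-0.931), Pdlim7 (-0.930) and Bin1 (-0.930). For the 1249-base Dbp row the most alike were Atp5mf (0.886), Ndufs5 (0.874), Cox7c (0.855), Uqcr10 (0.852) and Ndufa4 (0.852), which encode parts of the respiratory chain and ATP synthase. The most opposed were Zc3h7b (-0.930), RT1-A3 (-0.902), RT1-CE5 in 2 rows (-0.899 and -0.899) and Nfkb1 (-0.892). With the 3 Dbp rows summed none of these 10 rows was among the 5 at either end. These are the extremes of many correlations over 12 limbs that share libraries and are descriptions.

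Of 21 further clock genes, 18 were in the table. Within silenced animals 5 of the 18 rose, where 30.5% of all rows were called higher, and none fell, where 6.76% were called lower. Clock and Npas2, the partners of ARNTL, rose by 0.54 (adjusted p = 0.022) and 0.75 (adjusted p = 0.017). Btrc, which encodes a ubiquitin ligase subunit that marks period proteins for breakdown, rose by 0.63 (adjusted p = 0.0012). Csnk1d, the casein kinase that phosphorylates period proteins, rose by 0.45 (adjusted p = 0.0042), and Wee1, a clock-controlled cell cycle kinase gene, by 0.57 (adjusted p = 0.015). After rescaling, 1 of these 5 was still called, Btrc, and Bhlhe40, Usp2 and Nampt fell, so that the count of 5 turned on the scaling. The same 5 were called after repeated atrophy, where Btrc alone of them stayed called after either scaling. There Ciart and Usp2 were called lower after rescaling, and 3 of the 18 after quantile scaling. None of the 18 was called in recovery or sham animals, but in recovery Ciart, Tef and Usp2 were called lower after rescaling, and Ciart and Tef after quantile scaling.

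Against the pooled control limbs, 3 of the 18 rose after atrophy (Clock, Csnk1d and Btrc) and 4 after repeated atrophy (Npas2, Csnk1d, Btrc and Wee1), and none fell in either, beside 22.6% and 34.3% of all rows called. After rescaling none rose and 1 fell after atrophy (Usp2), and 1 rose (Btrc) and 3 fell (Hlf, Usp2 and Nampt) after repeated atrophy. In recovery 1 fell, Tef, the D-box activator related to Dbp, by 0.61 (adjusted p = 0.042), beside 7.73% of all rows called. Csnk1d and Csnk1e were called lower with Tef there after rescaling, and after quantile scaling Csnk1e was the 1 gene of the 18 called. Genes that respond to glucocorticoids, hormones that vary with time of day, also differed between limbs of silenced animals, with 2 of 9 higher (Sgk1 and Mt2A) and 5 lower (Fkbp5, Zbtb16, Klf15, Dusp1 and Ddit4), beside the 30.5% and 6.76% of all rows called higher and lower. Of 11 immediate early genes Jun rose and Nr4a1 fell there.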

How the data were processed

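Directional polyadenylated RNA libraries from 24 limbs of 12 rats were sequenced as paired reads. The authors removed contaminant reads with Bowtie2 2.2.5, aligned the rest to rn7 with STAR and quantified in Partek Flow, and the annotation and counting settings are not given in the sources used here. The values are deposited as CPM, since every column has the total that unit requires, although the methods name median-of-ratios scaling. The rows are transcript models with fractional values, and 84.9 to 86.7% of the values of up to 20 reads lay within 0.02 of a whole read, so reads were not recovered. Of 14271 rows, 28 exact duplicates were dropped, and 3 value columns that matched no sample were not used. The table's coordinates are rn7.

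Groups came from the submitters' labels. Rows above 0 in at least 3 limbs were fitted on log2(CPM + 1), with a pseudocount of 1, in limma 3.58.1 (R 4.3.3, trended variance), and p-values were adjusted by Benjamini-Hochberg over all rows. Treated limbs were set against the 9 control limbs in 18 limbs without a block, as the study did. Left and right limbs were compared in all 24 with the animal as a block, the pairing being that both limbs carry 1 animal's label. Right limbs (12) and sham left limbs were fitted separately. The 24 samples were the 2 limbs of 12 separate animals. The scripts were tested on simulated data. Permutation tests were two-sided with 100000 resamples in scipy 1.17.1. Alternatives were pseudocounts of 0.1 and 10, trimmed-mean and quantile scaling, other filters, no trend, the block, 12 right limbs as control and each animal left out. Summed rows (also in the correlations, the shares between animals and the levels per length), the 18 limbs of TTX animals and the contrast of recovery with silenced animals were added after seeing the data. The named genes were all members, a list of further clock genes (1 of which is not reported here), the 5 rows most and least correlated with Arntl and with Dbp, Thra, and the called genes of 9 glucocorticoid and 11 immediate early genes. Members and lists were chosen with earlier results of these data known. The marker lists of macrophages, endothelium, Schwann cells and adipocytes held 6, 4, 5 and 3 genes, and in silenced limbs (atrophy and repeated atrophy) they summed to 29.1 to 114.3, 108.5 to 173.7, 39.6 to 70.0 and 7.12 to 21.0 CPM, against 28.8 to 97.6, 138.9 to 190.8, 41.0 to 91.5 and 5.06 to 27.0 CPM in control limbs.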

Additional observations from a re-analysis of the deposited data

Results flagged for a closer look

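Among the 9 control limbs, the right limb of repeated atrophy animal 3 had the lowest Dbp level in the 1249-base row, 3.04 on the log2(CPM + 1) scale, and its gap to the next limb took 0.512 of the group's range, above Dixon's critical value for 9 samples. About 1 group in 20 is picked out this way by chance, and the 1660-base row of the same limb held 146.1 CPM. The difference between limbs in Nfil3 differed between groups by a test of the difference itself, with -2.38 for silenced minus sham animals (adjusted p = 0.0486) and 1.85 for recovery minus silenced animals (adjusted p = 0.0499), both in limma with the animal as a block. Both calls were lost after trimmed-mean scaling (adjusted p = 0.073 and 0.065) and quantile scaling (adjusted p = 0.092 and 0.082). The first was also lost without any 1 of 10 of the 12 animals and the second without any 1 of 9 of them.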

How the results depend on the processing

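The count of members called moved as follows. Against control, atrophy went from 1 to 0 with a pseudocount of 10 or the replicate block, to 3 with trimmed-mean or quantile scaling (which added Per2 and Cry1, both lower) and to 2 with rows of at least 1 CPM. Recovery went from 0 to 1 (Per2) with trimmed-mean scaling. Repeated atrophy went from 2 to 3 with a pseudocount of 0.1, either scaling (which lost Dbp), rows of at least 1 CPM, the block or 12 right limbs. Recovery against atrophy went from 1 to 2 with a pseudocount of 0.1 or rows of at least 1 CPM, and to 0 with trimmed-mean scaling, the replicate block or 12 right limbs as control, and quantile scaling called Cry1 in place of Arntl. Repeated atrophy against recovery went from 2 to 0 with the replicate block and to 1 with 12 right limbs, and either scaling called Cry1 in place of Cry2. Between limbs, atrophy went from 0 to 1 with a pseudocount of 0.1 or rows of at least 1 CPM, recovery from 0 to 1 (Per2) and repeated atrophy from 3 to 5 with either scaling and to 2 with no replicate block, and silenced limbs from 5 to 2 with no replicate block and to 6 with rows of at least 1 CPM, no trend or summed rows. The counts of 1 for silenced minus sham and for recovery minus silenced animals went to 0 with a pseudocount of 10, either scaling, no filter, no trend or no replicate block, and the latter to 2 with summed rows (which added Dbp). Summed rows also called Nr1d1 in place of Dbp in repeated atrophy against control. In the group comparisons the block took away the calls of Nfil3 in atrophy against control, of Arntl in recovery against atrophy and of Nfil3 and Cry2 in repeated atrophy against recovery, gave Nr1d1 a call in repeated atrophy against control, and changed no other member's call. The causes were not tested.

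Leaving out 1 animal gave 0 to 1 members for atrophy, 0 for recovery and 1 to 3 for repeated atrophy against control, 0 to 3 for recovery against atrophy, 1 to 4 for repeated atrophy against recovery, 0 to 1 for repeated atrophy against atrophy, and between limbs 0 to 1 for atrophy, 2 to 3 for repeated atrophy, 2 to 6 for silenced, 0 to 1 for silenced minus sham and 0 to 3 for recovery minus silenced. It gave 0 in the other comparisons.

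Of the 52 member values at an unadjusted p under 0.05 or called under some setting, Arntl in recovery against atrophy turned to 0.028 with the replicate block, where limb differences are compared, and Per2 between limbs in repeated atrophy (-0.15) ranged from -0.27 to 0.054 over the animals left out, the highest without repeated atrophy animal 1, and was called at -0.52 (adjusted p = 0.020) with trimmed-mean and -0.55 (adjusted p = 0.013) with quantile scaling. The 52 values together gave 926 alternatives with the same call, 51 that gained it, 76 that lost it and these 2 that changed sign. Of the other 128 values, none of which any setting called, 71 changed sign under some alternative. After rescaling the relation of Arntl between limbs passed in r and rho, and that of Arntl with Nfil3 in r alone; 1 pair passed in r in each family before and after. With summed rows 3 relations of Arntl passed in r, those with Nfil3, Dbp and Cry1. Between treated groups and control the shares of higher rows among those called were 89.7%, 56.9% and 81.8% for atrophy, recovery and repeated atrophy, and 48.8%, 50.1% and 52.1% after rescaling.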
